A study of Mus musculus with 4 samples.

Results

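The amino acid transporter families described here are genes of the Slc1, Slc6, Slc7, Slc36, Slc38 and Slc43 families, found by a pattern on the gene symbol that ends in a number, with Slc7a11 left out by the rule. Slc6a20b, whose symbol ends in a letter, does not match it and is counted among the other membrane carriers. The pattern matched 34 of 24689 genes. The RNA came from HT-22, a mouse line of immortalized hippocampal neurons, grown to passages 21 to 24, and was sequenced. Of the 4 libraries, 2 came from cells with induced Pja2, a gene for a RING-type E3 ubiquitin ligase, and 2 from uninduced control cells. The titles call the induced cells Pja2-pb and the control cells WT. The labels give neither the means of induction nor the number of clones, and they leave unsaid whether both groups derive from 1 line. Since nothing states that replicates were grown apart, the p-values speak only of the spread between these libraries, which may be technical.

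Amino acids cross membranes through carriers that differ in driving force, substrate and location. The glutamate and neutral amino acid carriers of Slc1 and the taurine, creatine and glycine carriers of Slc6 are driven by sodium, and the system A carriers of Slc38 concentrate glutamine and alanine with sodium. The Slc7 light chains exchange large neutral or cationic amino acids and mostly need the heavy chain Slc3a2 to reach the cell surface. In Slc36, the Slc36a1 carrier moves small amino acids with protons, and Slc43 carriers let neutral amino acids through without sodium. In brain, Slc1 and Slc6 carriers end transmitter signals, and lysosomal members of Slc36 and Slc38 feed the amino acid sensing of the mTORC1 kinase complex. Several members carry substrates other than amino acids, among them the monoamine carriers of Slc6, the creatine carrier Slc6a8 and the nucleobase carrier Slc43a3.

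Reads in genes numbered 30080376 and 35262653 for induced cells, against 25787452 and 31010351 for control cells. Values are normalized reads, meaning reads divided by a factor per library, and 1 CPM, the count scaled to library size, stood for 25.8 to 35.3 reads. Pja2 had 54830 and 54244 normalized reads in induced cells, against 6167 and 5881 in control cells, 9.05-fold higher. Few markers of the labelled neuronal cell type were detected: of 15 neuronal markers, Tubb3 and Camk2a reached a mean of 1 CPM, and Rbfox3, Map2, Snap25, Nefm, Grin1 and Neurod1 had no row. The neuronal markers summed to 26.5 and 23.5 CPM in induced cells, against 23.8 and 19.1 CPM in control cells. Of 9 mesenchymal markers 8 reached 1 CPM, with 11074 and 10978 CPM in sum in induced cells, against 12930 and 11408 CPM in control cells, and 2 were lower in induced cells (limma). Of 6 astrocyte markers, Aldh1l1 reached 1 CPM, and together they summed to 0.898 and 1.19 CPM in induced cells, against 2.13 and 2.39 CPM in control cells. The lower sum in induced cells came with Aldh1l1 (5 and 16 reads, against 46 and 62 in control cells), while Gfap had 9 and 10 reads in induced cells, against 6 and 0 in control cells, and S100b had 3 and 7, against 0 in both control libraries. Oligodendrocyte markers, with Mbp above 1 CPM, summed to 3.32 and 2.72 CPM in induced cells, against 1.20 and 2.26 CPM in control cells. Microglia markers, with Aif1 above 1 CPM, summed to 2.46 and 3.37 CPM in induced cells, against 2.02 and 2.13 CPM in control cells. Endothelial markers were under 1 CPM. The part of these markers in the results was not tested. Fewer cells of a type and less RNA per cell cannot be told apart in such bulk libraries.

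Of the 34 transporter genes 23 had a mean of at least 1 CPM and were tested, and 3 of them differed between the groups. Slc36a1 and Slc43a2 rose in induced cells, Slc38a4 fell, and 20 did not pass the test (limma, adjusted p under 0.05 over 13276 genes). The 2 rises are 8.70% of the tested transporter genes, against 2.08% of all tested genes called higher. The 1 fall is 4.35%, against 1.34% of all tested genes called lower. The genes that changed belong to different families. In each of these families the other tested members lay within a log2 fold change of -0.27 to 0.22.

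The promoters of the 3 genes that changed are shown because those genes carry the result, each from 250 bases before to 50 bases after an annotated start. They are RefSeq sequences of build GRCm38.p6, given 5′ to 3′ on the gene's own strand, for the most upstream start listed. The Slc36a1 window is chr11:55204090-55204389 on the plus strand, that of Slc43a2 is chr11:75531444-75531743 on the plus strand, and that of Slc38a4 is chr15:97055907-97056206 on the minus strand. Capitals mark matches to GTCACGTG on either strand, each of which also holds CACGTG, the core motif bound by several basic helix-loop-helix factors.
Slc36a1: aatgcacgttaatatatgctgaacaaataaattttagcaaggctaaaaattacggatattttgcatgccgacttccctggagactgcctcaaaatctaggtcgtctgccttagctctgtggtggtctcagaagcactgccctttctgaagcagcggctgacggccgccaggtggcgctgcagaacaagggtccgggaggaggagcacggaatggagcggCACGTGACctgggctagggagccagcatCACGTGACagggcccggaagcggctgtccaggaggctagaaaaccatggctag
Slc43a2: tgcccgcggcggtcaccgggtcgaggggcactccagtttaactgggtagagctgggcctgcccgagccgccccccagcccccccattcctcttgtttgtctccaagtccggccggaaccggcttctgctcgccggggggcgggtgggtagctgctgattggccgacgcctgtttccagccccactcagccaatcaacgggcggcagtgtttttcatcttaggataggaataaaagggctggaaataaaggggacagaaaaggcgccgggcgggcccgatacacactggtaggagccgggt
Slc38a4: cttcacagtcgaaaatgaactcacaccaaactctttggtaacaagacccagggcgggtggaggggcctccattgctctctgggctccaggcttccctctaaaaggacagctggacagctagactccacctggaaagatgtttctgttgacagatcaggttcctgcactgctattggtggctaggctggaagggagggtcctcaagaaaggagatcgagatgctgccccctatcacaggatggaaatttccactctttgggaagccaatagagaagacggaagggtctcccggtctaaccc

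The Slc36a1 window held 2 such matches, and their CACGTG cores began 31 and 3 bases before the start. At least 1 GTCACGTG was present in 2.25% of 32851 promoter windows of the same length, and at least 2 separate ones in 0.177%. CACGTG alone was present in 7.15%. The third motif searched, TGATGNAA on both strands, is the core of the amino acid response element, and 3.97% of windows held it. The windows of Slc43a2 and Slc38a4, including the other starts listed for them, held none of these letters. Of the 24 transporter genes with a promoter in the table, 5 had CACGTG and 3 had TGATGNAA in at least 1 of their windows; these counts are per gene, and the shares above are per window. Besides Slc36a1, the genes with CACGTG were Slc38a7, which did not pass the test, and Slc1a7, Slc43a1 and Slc7a14, which were not tested. The genes with TGATGNAA were Slc1a4, Slc6a21 and Slc7a7, of which Slc6a21 was not tested and the others did not pass. A match in letters is not evidence of binding.

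Slc36a1 (ENSMUSG00000020261, chromosome 11) encodes a proton-coupled carrier of small amino acids such as glycine, alanine and proline, known from the lysosomal membrane and the cell surface. It had 1315 and 1401 normalized reads in induced cells, against 518 and 512 in control cells. The libraries of a group lay close together and the groups were far apart. The gene rose 2.64-fold, with a log2 fold change of 1.40 (SE 0.09, 95% interval 1.18 to 1.62, limma adjusted p = 0.00404). These values rest on 1209 and 1511 reads in induced cells and 412 and 486 in control cells. It passed the test in each of 10 refits, with a log2 fold change between 1.35 and 1.44.

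Slc36a4, known as a high-affinity carrier of proline and tryptophan, was the other Slc36 gene in the table. It had 1662 and 1619 normalized reads in induced cells, against 1612 and 1638 in control cells, and the groups overlapped. Its log2 fold change was 0.01 with a 95% interval of -0.16 to 0.19. Per kb of annotated exons, Slc36a1 stood at 241 normalized reads in induced cells and 91.5 in control cells, and Slc36a4 at 251 in induced cells and 248 in control cells. The level of Slc36a1 per length was thus near that of Slc36a4 in induced cells and below it in control cells. Fat2, the next protein-coding gene on one side of Slc36a1, had a log2 fold change of 0.09 (SE 0.15, limma adjusted p = 0.796).

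Slc43a2 (ENSMUSG00000038178, chromosome 11) encodes LAT4, a sodium-independent carrier of branched-chain amino acids and phenylalanine. It had 204 and 275 normalized reads in induced cells, against 70.4 and 35.8 in control cells. Both induced libraries lay above both control libraries, while the control libraries stood at a ratio of 0.508, second over first. The gene rose 4.51-fold, with a log2 fold change of 2.21 (SE 0.36, 95% interval 1.33 to 3.10, limma adjusted p = 0.0366). The counts behind it were 188 and 296 reads in induced cells and 56 and 34 in control cells. The call ended without induced replicate 2 (adjusted p = 0.0952) and without the filter on low genes (0.0829), and the refits gave log2 fold changes of 1.74 to 2.69. An antisense gene, Gm45606, which has no row in the table, shares 922 bases with its exons, and the library kit does not mark strand, so reads of this gene and of Slc43a2 cannot be told apart there.

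Slc43a3, a carrier of purine nucleobases, had 1111 and 1197 normalized reads in induced cells, against 1169 and 1038 in control cells. Its groups overlapped and its log2 fold change was 0.07 (95% interval -0.18 to 0.31). Slc43a1, which encodes the related carrier LAT3, had 0 reads in both induced libraries, against 0 and 3 in the control libraries. Slc43a2 was thus the 1 member of its family that changed, and its level per kb stayed low, at 23.8 normalized reads in induced cells and 5.29 in control cells. Pitpna, its protein-coding neighbour on one side, had a log2 fold change of 0.20 (SE 0.08, limma adjusted p = 0.269).

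**Figure D1:**
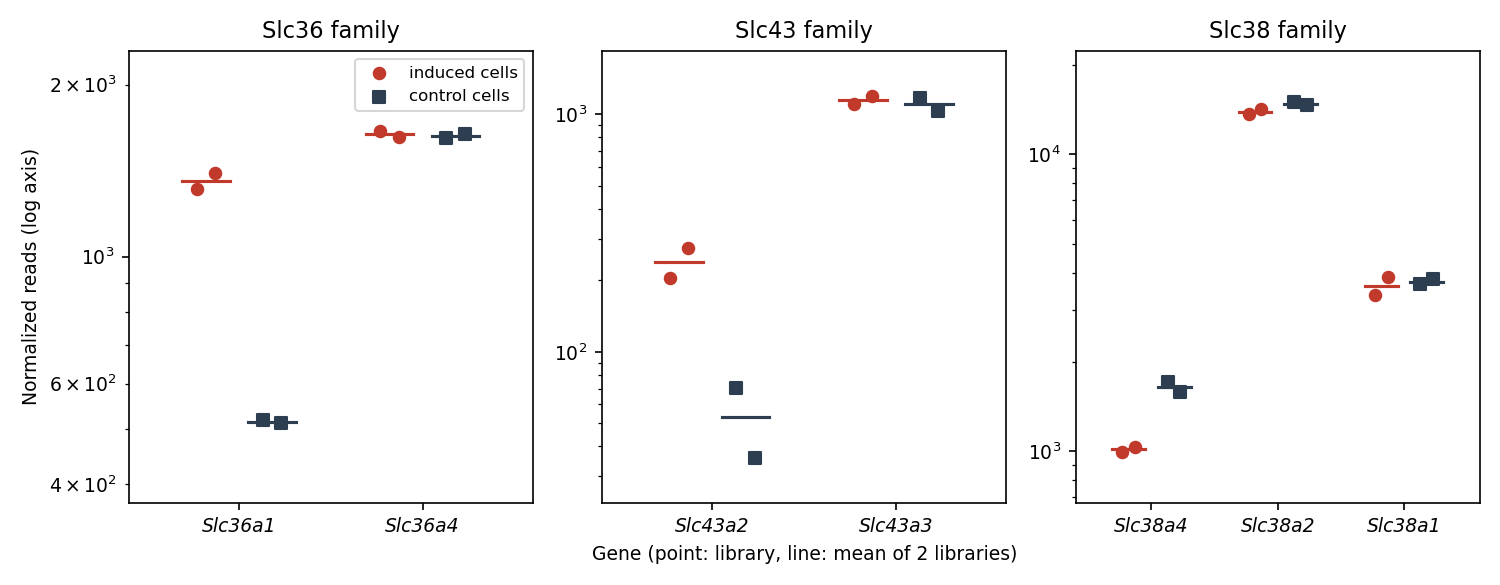
Normalized reads (log axis) of the 3 genes that changed, each at the left of its panel, beside relatives of the same family, with 1 point per library and a line at the mean of 2 libraries. Slc36a1 and Slc43a2 were higher and Slc38a4 was lower in induced cells, while Slc36a4, Slc43a3 and Slc38a1 had overlapping groups.

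Slc38a4 (ENSMUSG00000022464, chromosome 15) encodes SNAT4, a sodium-coupled carrier of small neutral and cationic amino acids, imprinted in mouse. It had 999 and 1035 normalized reads in induced cells, against 1716 and 1588 in control cells. The induced libraries lay below both control libraries, and the libraries of each group lay close together. The control level was 1.62-fold the induced level, and the log2 fold change was -0.70 (SE 0.08, 95% interval -0.90 to -0.49, limma adjusted p = 0.0181). The call ended without control replicate 1, with a log2 fold change of -0.64. It held narrowly without the filter on low genes (limma adjusted p = 0.044). Over the 10 refits the log2 fold change ran from -0.75 to -0.64.

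Slc38a2 and Slc38a1 are the nearest protein-coding neighbours of Slc38a4 on one side and encode the system A carriers SNAT2 and SNAT1. Slc38a2, which is induced by amino acid shortage in many cells, had 13676 and 14198 normalized reads in induced cells, against 15008 and 14624 in control cells. Slc38a1, a glutamine carrier abundant in neurons, had 3373 and 3865 normalized reads in induced cells, against 3663 and 3803 in control cells. Slc38a2 lay slightly lower in induced cells with no overlap, and Slc38a1 overlapped. The log2 fold changes were -0.09 (95% interval -0.23 to 0.06) for Slc38a2 and -0.05 (-0.26 to 0.16) for Slc38a1, and neither passed the test. A fall of the size of Slc38a4 lies outside both intervals.

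Of the other Slc38 genes, 2 act at the lysosome. Slc38a9, which passes the arginine signal to mTORC1, had 493 and 480 normalized reads in induced cells, against 673 and 512 in control cells. Slc38a7, a lysosomal exporter of glutamine and asparagine, had 1024 and 1063 normalized reads in induced cells, against 883 and 905 in control cells. The groups did not overlap for either gene, lower for Slc38a9 and higher for Slc38a7, and both missed the threshold (log2 fold changes -0.27 and 0.22, limma adjusted p = 0.398 and 0.233). Slc38a10 had 5457 and 5124 normalized reads in induced cells, against 4708 and 4811 in control cells (log2 fold change 0.15, limma adjusted p = 0.281). Slc38a6 had a log2 fold change of 0.19 (limma adjusted p = 0.441).

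**Figure D2:**
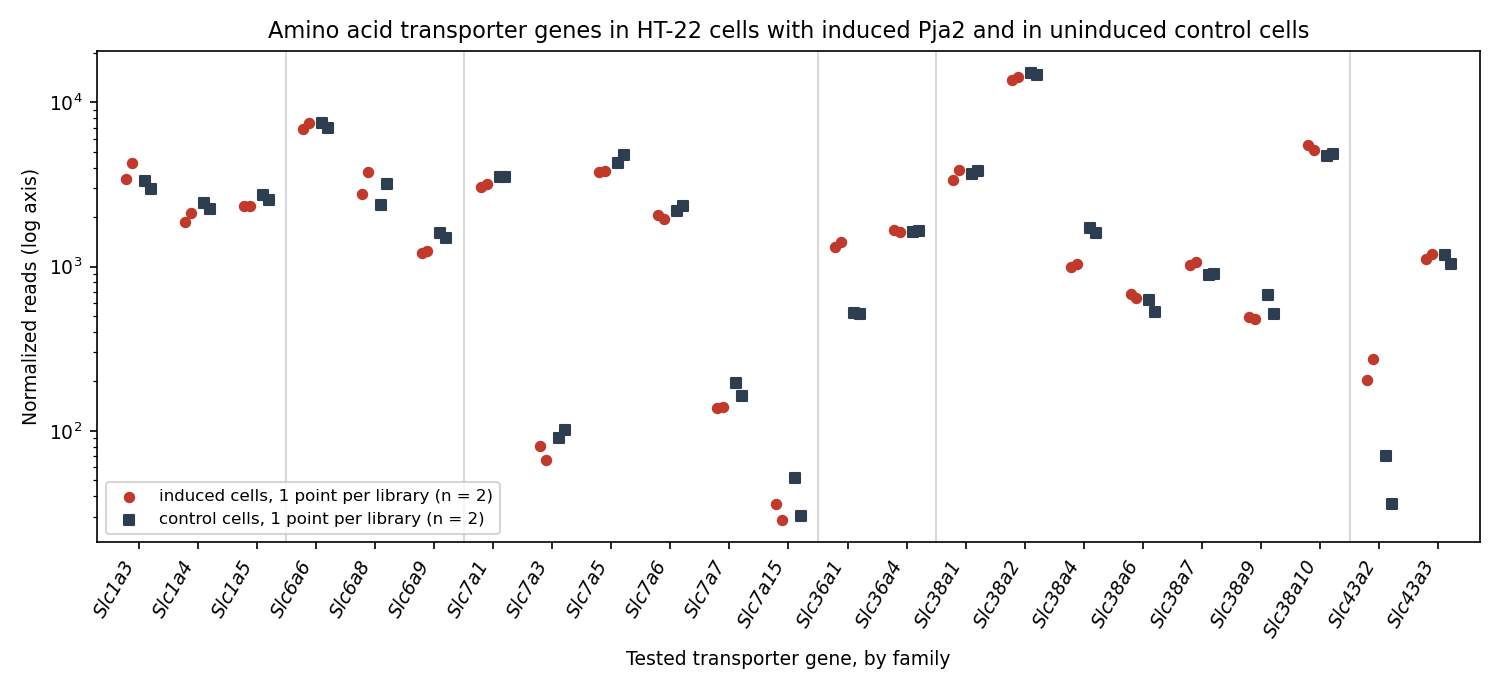
Normalized reads (log axis) of the 23 tested transporter genes by family, with red circles for the 2 libraries of induced cells and dark squares for the 2 of control cells. The groups separate widely for Slc36a1, Slc43a2 and Slc38a4, and lie close together or overlap for the other 20.

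Light chains and cationic carriers of Slc7 lay below 0 in 6 of 6 tested genes, against 49.6% of all tested genes, with a median log2 fold change of -0.28. In limma 0 of 6 passed the test, and 2 had an unadjusted p under 0.05. Of all 13276 tested genes, 1165 (8.78%) were both lower in induced cells and under that p. That share is taken over genes of either direction, whereas all 6 Slc7 genes lay below 0, so it is not a like comparison. Slc7a5 encodes LAT1, the exchanger that brings in leucine and other large neutral amino acids. It had 3732 and 3795 normalized reads in induced cells, against 4247 and 4736 in control cells. Slc7a1, the main carrier of arginine and lysine in most cells, had 3025 and 3185 normalized reads in induced cells, against 3510 in each control library. For both genes the induced libraries lay below the control libraries. The log2 fold changes were -0.25 for Slc7a5 (95% interval -0.44 to -0.07, limma adjusted p = 0.159) and -0.18 for Slc7a1 (-0.34 to -0.02, limma adjusted p = 0.226).

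Slc7a6, an exchanger of cationic for neutral amino acids, had 2044 and 1957 normalized reads in induced cells, against 2175 and 2325 in control cells. Its log2 fold change was -0.17 (limma adjusted p = 0.295). Its relative Slc7a7 had 137 and 140 normalized reads in induced cells, against 196 and 164 in control cells (log2 fold change -0.37, limma adjusted p = 0.318). In both genes the induced libraries were the lower ones. The exons of Slc7a7 share 232 bases with those of Oxa1l, which had 2413 and 2584 normalized reads in induced cells, against 2480 and 2681 in control cells. The cationic carrier gene Slc7a3 had log2 fold change -0.38, and Slc7a15 had -0.30 on 33 and 31 reads in induced cells, against 41 and 29 in control cells. The intervals of these low genes were wide, -0.93 to 0.17 for Slc7a3 and -1.23 to 0.63 for Slc7a15. The heavy chain gene Slc3a2, which pairs with Slc7a5, Slc7a6 and Slc7a7, had a log2 fold change of -0.06 (95% interval -0.29 to 0.16).

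The 3 tested Slc1 genes did not pass the test and lay on both sides of 0. Slc1a3 encodes the glutamate carrier GLAST, best known from astrocytes. It had 3426 and 4237 normalized reads in induced cells, against 3302 and 2956 in control cells, a log2 fold change of 0.29 (limma adjusted p = 0.269). The groups did not overlap, although the induced libraries lay further apart than the groups' nearest values. Of the astrocyte markers, Gfap, S100b and Fgfr3 had at most 12 reads in any library. Aldh1l1 had 5 and 16 reads in induced cells, against 46 and 62 in control cells, and Aqp4 and Gjb6 had no row. Slc1a3 had 2626 to 4569 reads over the libraries. Slc1a5, the glutamine exchanger ASCT2, had 2329 and 2341 normalized reads in induced cells, against 2721 and 2544 in control cells. Slc1a4, the alanine, serine and cysteine exchanger ASCT1, had 1862 and 2118 in induced cells, against 2435 and 2244 in control cells. Both lay lower in induced cells without overlap, with log2 fold changes of -0.17 and -0.24 (limma adjusted p = 0.266 and 0.253).

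In Slc6, the 3 tested genes were Slc6a6 for taurine, Slc6a8 for creatine and Slc6a9 for glycine. Slc6a6 had 6851 and 7446 normalized reads in induced cells, against 7436 and 6974 in control cells, and its log2 fold change was -0.01 (95% interval -0.19 to 0.17). Slc6a8 had 2766 and 3764 normalized reads in induced cells, against 2357 and 3187 in control cells. Its replicates differed by the same ratio in both groups (1.36 in induced cells and 1.35 in control cells, second over first), and its log2 fold change was 0.24 (SE 0.19, limma adjusted p = 0.558). Slc6a9, the glycine carrier GlyT1, had 1208 and 1249 normalized reads in induced cells, against 1597 and 1481 in control cells. It lay lower in both induced libraries, with a log2 fold change of -0.32 (95% interval -0.53 to -0.12, limma adjusted p = 0.111), the lowest adjusted p among the 20 tested members that did not pass. Up to 38.6% of its exon length overlaps other genes on the opposite strand, a sum over genes that may count shared bases more than once. Among them is Ccdc24, with 180.5 and 188 normalized reads in induced cells, against 71.7 and 133 in control cells.

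**Figure D3:**
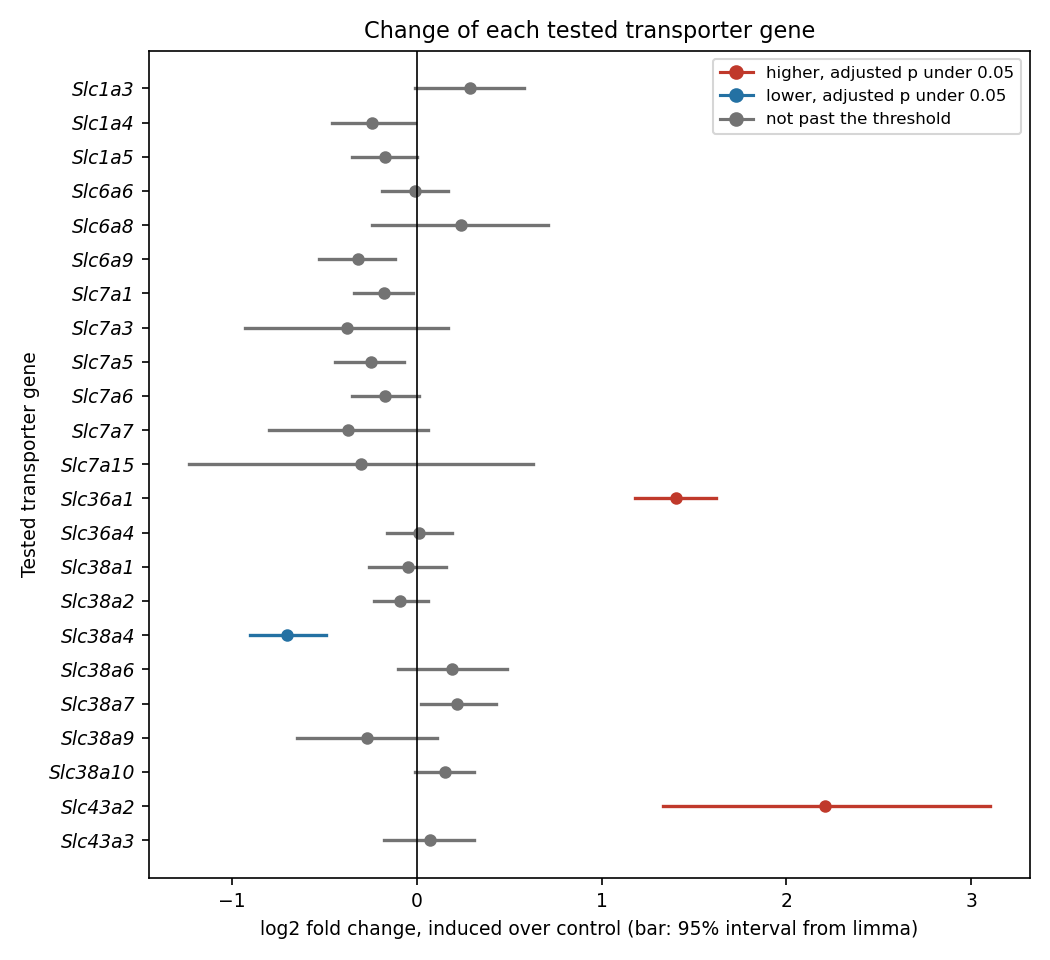
Log2 fold change of induced over control cells for the 23 tested transporter genes (points) with 95% intervals from limma (bars), with colour for the 3 past the threshold. Slc36a1 at 1.40 and Slc43a2 at 2.21 lie to the right of 0 and Slc38a4 at -0.70 to the left, and the other 20 lie between -0.38 and 0.29.

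Over the 20 tested members that did not pass, log2 fold changes ran from -0.38 to 0.29, and 5 had an unadjusted p under 0.05 in limma, against 16.2% of the 12822 tested genes of the table that did not pass. The 95% interval excluded a 2-fold difference in either direction for 19 of them, the exception being Slc7a15. Over all 23 tested members 14 lay below 0 and 9 above, with a median log2 fold change of -0.09, against a median of 0.00 over all tested genes, of which 49.6% lay below 0. Both induced libraries lay below both control libraries for 11 members (47.8%), against 25.1% of all tested genes. Both lay above for 6 members (26.1%), against 26.2% of all tested genes.

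Levels between genes were compared per kb of exons, by GENCODE M21 annotation of the Ensembl identifier. The length is that of all annotated exons of a gene merged, 17.236 kb for Slc38a1. Which transcripts these cells make was not examined, so places between genes depend on this choice of length. Slc38a2 had the highest level in both groups, at 1577 normalized reads per kb in induced cells and 1676 in control cells. Slc7a5, Slc6a6 and Slc38a10 followed in the same order in both groups, with 1015, 845 and 824 normalized reads per kb in induced cells, against 1211, 852 and 741 in control cells. The ranges of the single libraries of Slc6a6 and Slc38a10 overlapped in induced cells, so their order there does not exceed the spread. Of the genes that changed, Slc36a1 was in place 14 in induced cells and 17 in control cells, Slc43a2 in places 21 and 23, and Slc38a4 in places 16 and 9. Places 13 to 16 in induced cells (Slc36a4, Slc36a1, Slc6a9 and Slc38a4) were not separated beyond the spread of the libraries. Slc43a3 and Slc38a7, in places 11 and 12, also overlapped Slc36a4 there. Slc43a2 overlapped Slc7a3 in induced cells and Slc6a7 in control cells. In control cells Slc38a4, in place 9, overlapped Slc1a3 in place 10. Slc36a1 made up 2.67% and 2.69% of the summed level per kb of all 34 members in induced cells, against 0.988% and 0.975% in control cells. The reads of all 34 members summed to 1758 and 1873 CPM in induced cells, against 1875 and 1846 in control cells, and these ranges overlapped.

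**Figure D4:**
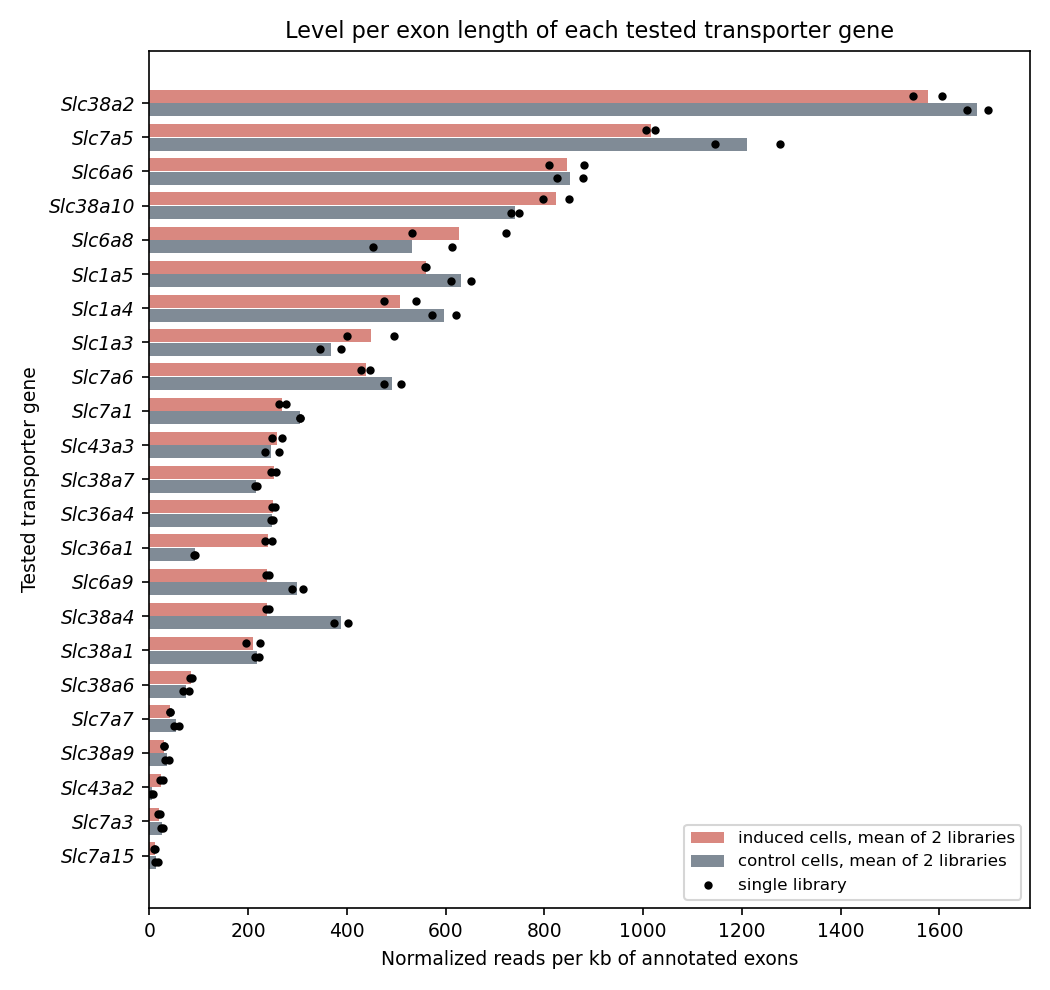
Normalized reads per kb of annotated exons for the 23 tested transporter genes, ordered by the mean in induced cells, with bars for the mean of 2 libraries and dots for single libraries. Slc38a2 stands highest in both groups, and Slc36a1 is near Slc36a4 in induced cells and below it in control cells.

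The other 11 members were under 1 CPM and were not tested. Their counts ran from 0 to 13 reads per library, and 7 of them had reads in a single library. They include carriers of nerve terminals and glia: Slc1a2, the glutamate carrier GLT-1, had 0 and 3 reads in induced cells, against 0 in both control libraries. The noradrenaline carrier gene Slc6a2 had 8 and 7 reads in induced cells, against 11 and 9 in control cells. The proline carrier gene Slc6a7 had 4 and 0 reads in induced cells, against 0 and 13 in control cells. The serotonin carrier gene Slc6a4, the glycine carrier gene Slc6a5, Slc6a21, Slc7a2, Slc7a8, Slc7a14 and Slc43a1 had at most 5 reads in any library, and Slc1a7 at most 6. A count of 0 allows up to 3 reads by counting error alone. In the limma fit without the filter, 0 of these 11 genes passed and 0 had an unadjusted p under 0.05 (lowest adjusted p = 0.669).

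Around the transporters, 157 genes of amino acid carriage, sensing and metabolism were in the table in 11 lists, 141 were tested, 3 rose and 0 fell in limma, against the shares of 2.08% and 1.34% for all tested genes. Of 29 tested genes of amino acid sensing by mTORC1, 1 rose: the leucine sensor gene Sesn2, with 1787 ± 18.1 normalized reads in induced cells and 1313 ± 45.9 in control cells (SD, n = 2 each; log2 fold change 0.44, limma adjusted p = 0.0402). The Sesn2 call held in 4 of 10 refits, and leaving out any single library ended it (adjusted p 0.0759 to 0.16). Of 20 genes of glutamine, glutamate and aspartate metabolism, 1 rose: Ass1, which makes argininosuccinate from citrulline and aspartate, with 2861 ± 161 in induced cells and 1831 ± 58.0 in control cells (SD, n = 2 each; log2 fold change 0.64, limma adjusted p = 0.0180). Of 10 genes of arginine, polyamine and tryptophan metabolism, 1 rose: the inducible nitric oxide synthase gene Nos2, which uses arginine, with 458 ± 58.5 in induced cells and 204 ± 14.1 in control cells (SD, n = 2 each; log2 fold change 1.16, limma adjusted p = 0.0226). Without induced replicate 1 the adjusted p was 0.0550 for Ass1 and 0.0681 for Nos2, and without control replicate 2 it was 0.0580 for Nos2.

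No member of the other 8 lists passed the test in limma: heavy chains and partners (2 tested, median log2 fold change -0.14), a list of other membrane carriers (3, -0.26; Slc16a10, Slc18a2 and the mitochondrial citrate carrier gene Slc25a1), lysosomal carriers (7, -0.09), mitochondrial carriers (10, -0.09), amino acid response genes (15, -0.00), serine and glycine metabolism (16, -0.07), branched-chain catabolism (17, -0.05) and regulators of transporter turnover (12, -0.01). The medians of the lists with a called gene were -0.04 for sensing, -0.09 for glutamine metabolism and 0.07 for arginine metabolism. Among amino acid response genes, the transcription factor gene Atf4 had 7099 ± 216 normalized reads in induced cells and 8034 ± 329 in control cells, and the asparagine synthetase gene Asns had 3822 ± 9.59 and 5235 ± 538 in the same order (SD, n = 2 each). Their log2 fold changes were -0.18 and -0.45 (limma adjusted p = 0.218 and 0.0553), and Asns passed without control replicate 1 (adjusted p = 0.0341). The ubiquitin ligase gene Nedd4, known to act on membrane carriers, had a log2 fold change of 0.12 and the kinase gene Sgk1 of 0.13. The folliculin partner gene Fnip1 had -0.32 (limma adjusted p = 0.0565) and Rragc, a GTPase gene of mTORC1 recruitment, 0.06. Among carriers and their partners, the chaperone gene Bsg and the carrier genes Slc16a10, Slc25a1 (a citrate carrier), Ctns, Spns1, Sfxn3 and Sfxn1 had log2 fold changes between -0.26 and 0.01. The most abundant other genes of the metabolic lists, Got2, Glud1, Psat1, Mat2a, Bckdk, Mut, Amd1 and Azin1, lay between -0.15 and 0.09.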

How the data were processed

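RNA sequencing covered 4 libraries, 2 per group, from Trizol-extracted RNA and a TruSeq kit, per the labels' protocols. The submitters' processing notes name HISAT, Cufflinks and build mm9. The tool that counted reads, and the scaling, were not given in the sources used here. Values as deposited by the authors are log2 values. After 1 was subtracted from 2 raised to each value, 100% of values per library were whole multiples of 1 step (tolerance 0.01), so they are log2(normalized reads + 1) and whole reads were recovered. limma voom on the recovered reads was an alternative test. With the pseudocount of 1, log2 fold changes of low genes are understated, while the folds given here are free of it.

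limma 3.58.1 (R 4.3.3, trend, two-sided) was fitted on the 13276 genes that averaged 1 CPM or more, with Benjamini-Hochberg adjustment and a threshold of 0.05. It was tested on simulated data. An exact permutation test of 2 against 2 cannot go below p = 0.333. The replicates of a group were not 1 library deposited again: chi-square per gene was 12.9 in induced cells and 16.9 in control cells. A fold is a ratio of mean normalized reads. All 34 members matched GENCODE M21 by identifier (exon lengths, overlaps), and 24 matched RefSeq promoters of GRCm38.p6. Members and lists were chosen with earlier results of these data known. Members past the threshold are given in full. Also named were the 3 most read members of each family and, per list, up to 4 called genes and 2 others of highest expression; neighbouring and overlapping genes were added afterwards.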

Additional observations from a re-analysis of the deposited data

How the results depend on the processing

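The refits were no filter, a filter of 5 CPM, a pseudocount of 5, scaling by total reads, limma voom on recovered reads, a replicate block and the omission of each library. Slc36a1 passed in all 10 (adjusted p 0.00369 to 0.0125), Slc38a4 in 9 of 10 and Slc43a2 in 7 of the 9 in which it was tested, since it lies under 5 CPM. Transporter genes called higher numbered 2, but 1 without the filter and 1 with that of 5 CPM, and 1 to 2 when libraries were left out; genes called lower numbered 1, and 0 to 1 when libraries were left out. Over all tested genes, 276 were higher and 178 lower, against 100 and 59 without the filter and 157 and 104 with the replicate block. Leaving out libraries gave 113 to 204 higher and 78 to 136 lower; such fits have fewer samples, and for the block the cause was not tested. The block changed no call of a transporter gene, and it ended that of Sesn2 (adjusted p = 0.0815); deviations of same-numbered libraries correlated at -0.095 over 13276 genes, so the numbers are not taken as pairs. Of 197 refit values of the 20 transporter genes not called, 191 kept their direction and 0 passed. The 6 that changed sign came from leaving out a library, with log2 fold changes from -0.00496 to 0.03 for Slc36a4, -0.15 to 0.05 for Slc38a1, -0.02 to 0.15 for Slc43a3, -0.07 to 0.05 for Slc6a6 and -0.67 to 0.07 for Slc7a15. Other named genes changed sign in the same fits, running from -0.51 to 0.10 for Bsg, -0.15 to 0.02 for Slc3a2, -0.34 to 0.01 for Slc25a1, -0.23 to 0.15 for Spns1, -0.04 to 0.06 for Sfxn1, -0.17 to 0.08 for Psat1, -0.46 to 0.16 for Mat2a, -0.09 to 0.06 for Amd1 and -0.02 to 0.19 for Fat2. Sesn2 and Nos2 also missed the threshold without the filter (adjusted p = 0.0805 and 0.0515). With 2 libraries per group and 25787452 to 35262653 reads, genes with few reads such as Slc7a15 and Slc43a2 have wide intervals.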
